A study of Caenorhabditis elegans with 4 samples.

Results

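The proteasome genes of *C. elegans* were followed in RNA of embryos on 4 Affymetrix arrays. The members are the genes whose annotated symbol begins with *pas*, *pbs*, *rpt* or *rpn* and a number, taken from probe sets that name 1 gene. This rule found 33 genes on 39 probe sets, out of 17118 named genes on 22548 probe sets, and the RefSeq table gives all 33 the same symbol. There are 14 genes of the core particle (*pas* and *pbs*) and 19 of the regulatory particle (*rpt* and *rpn*). Each gene was represented by its brightest probe set, by the mean of the 4 arrays, and 32 of the 33 were bright enough to be tested, with 80 or more on 2 arrays or more, among 9723 tested genes in all.

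The proteasome degrades proteins that have been tagged with chains of ubiquitin. Its barrel-shaped core particle is built of outer rings of alpha subunits, which form the gate, and inner rings of beta subunits, which hold the peptide-cutting sites inside. The regulatory particle caps the barrel, and in it a base with a ring of ATPases unfolds substrates and threads them into the core, while a lid removes the ubiquitin. Dividing cells and early embryos depend on this machine, for instance when maternal proteins and cell cycle regulators are cleared.

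Groups of 2 arrays, replicates 1 and 2 in each, were compared by their deposited labels. By the deposited titles, animals labelled *daf-19(-)* were *daf-19(m86);daf-12(sa204)* double mutants and those labelled *daf-19(+)* carried *daf-12(sa204)* alone. Every animal thus carried the *daf-12* allele, which suppresses the constitutive dauer arrest of *daf-19(m86)*. *daf-19* encodes the RFX transcription factor of ciliated neurons and *daf-12* a nuclear hormone receptor. Embryos of unstated age were released from gravid adults with hypochlorite, so in this bulk RNA fewer cells of a type and less RNA per cell cannot be told apart. The study asked which genes need DAF-19, and the proteasome genes are followed here beside that question.

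The array names are in doubt. The study's own table of array results, of which 1998 rows were used here, heads the arrays labelled *daf-19(-)* as *daf-12* and those labelled *daf-19(+)* as *daf-19;daf-12*. In all 1998 rows its values match, within 0.05, the array that the labels name the opposite way. The mutated gene itself read 2493.4 and 2365.2 under the label *daf-19(-)* and 767.5 and 856.8 under *daf-19(+)* at its brighter probe set. Of 12 ciliated neuron genes tested, 8 were called higher and 0 lower on the arrays labelled *daf-19(-)*, where 0.422% and 0.0926% of all tested genes were. With the replicate number added to the fit as a block, all 12 were called higher, where 4.70% of all tested genes were. The study reports *osm-6*, *xbx-1* and *che-2*, which are among them, as reduced in *daf-19(-)* animals, opposite to the direction by these labels. No source used here states which naming is right, so every direction below is that of the arrays as labelled. Median signals ran from 106, on replicate 1 labelled *daf-19(+)*, to 144.45, on replicate 2 labelled *daf-19(-)*. The former array also had the fewest probe sets at 80 or more, 12084, where the others had from 12779 to 13454. Its correlations across labels, 0.937 and 0.935, were the lowest, and replicate 2 labelled *daf-19(+)* reached 0.962 with replicate 2 labelled *daf-19(-)*. Log2 signals correlated at 0.974 within the label *daf-19(-)*, at 0.960 within *daf-19(+)* and at 0.935 to 0.962 across labels, over 13096 probe sets that are not independent of each other. No source states that replicates were separate cultures, and a p-value here covers the spread between arrays alone. The deposited values are intensities, namely GCOS signals that the authors scaled on each chip to a target of 500. Differences are given as log2(signal + 16) on the arrays labelled *daf-19(-)* minus those labelled *daf-19(+)*, so a negative value means a higher signal on the latter.

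The proteasome genes had higher signals on the arrays labelled *daf-19(+)*, and 1 array carried most of this. Of the 32 tested genes, 31 had a log2 difference below 0, where 44.5% of all tested genes did, and the median was -0.37 against 0.06 for all tested genes. By limma with Benjamini-Hochberg adjustment over all tested probe sets, 0 were called higher and 0 lower, where 0.422% and 0.0926% of all tested genes were. At an unadjusted p under 0.05, 8 were lower and 0 higher, where 7.92% of all tested genes were lower and 12% higher. In 15 of the 32 both arrays labelled *daf-19(+)* lay above both arrays labelled *daf-19(-)*, where this held for 23% of all tested genes, and in 0 the reverse held, against 30.9%. An exact two-sided permutation test of 2 arrays against 2 cannot go below a p of 0.333.

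Replicate 1 labelled *daf-19(+)* was the highest of the 4 arrays in 31 of the 32 genes, where it was so in 29.2% of all tested genes. *rpn-10* is the exception at its brighter probe set, with its highest signal on replicate 2 of that label. The lowest array was replicate 2 labelled *daf-19(-)* in 14 genes, replicate 1 of that label in 11 and replicate 2 labelled *daf-19(+)* in 7. Without replicate 1 labelled *daf-19(+)* the median log2 difference of the core particle went from -0.50 to -0.14 and that of the regulatory particle from -0.20 to -0.06. A log2 difference below 0 then remained in 20 of the 32 genes, where it was found in 46.8% of all tested genes. Without replicate 2 of the same label, 16 of the 32 were called lower by limma, where 5.39% of all tested genes were, and all 32 lay above both arrays of the other label, where 36.2% did.

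**Figure D1:**
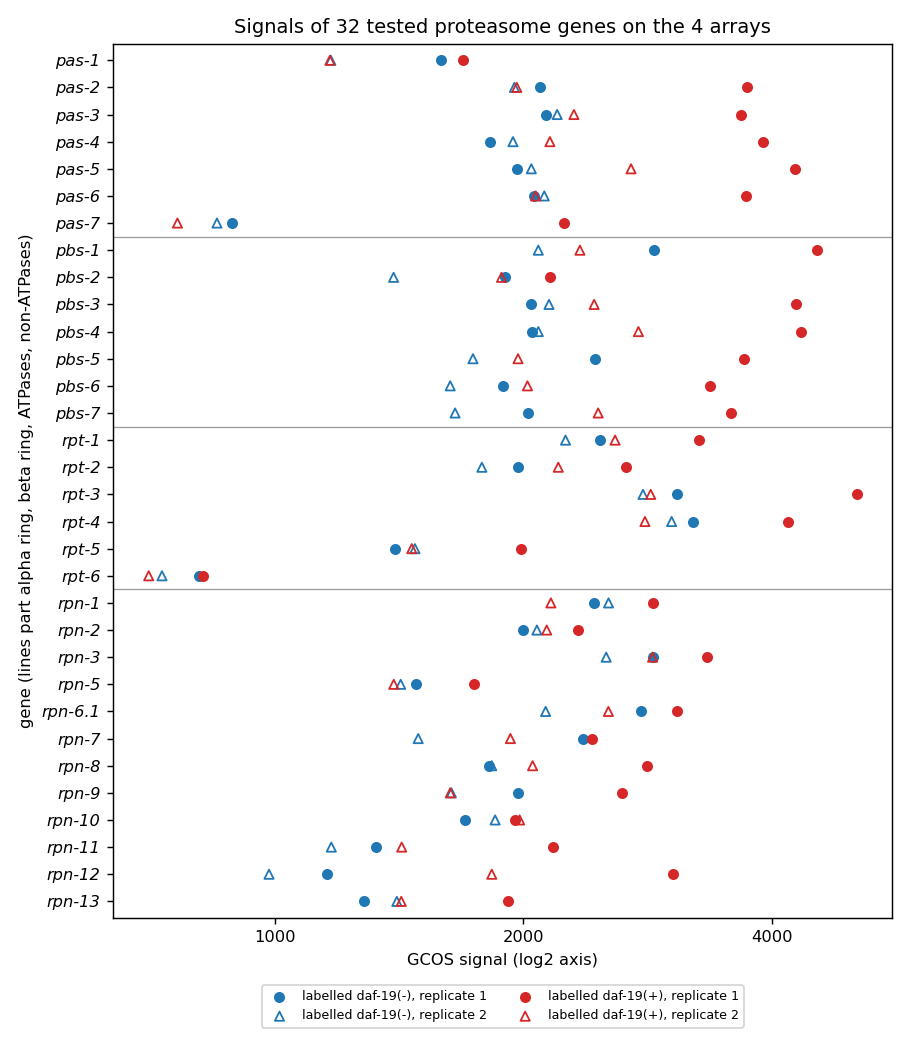
GCOS signals of the 32 tested proteasome genes (log2 axis), 1 point for each array, circles for replicate 1 and triangles for replicate 2, blue for arrays labelled daf-19(-) and red for those labelled daf-19(+); signals are to be compared within a gene and not between genes. The red circle, replicate 1 labelled daf-19(+), lies farthest to the right in 31 of the 32 genes.

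The study set replicate 1 against replicate 1 and replicate 2 against replicate 2. In the first of these experiments all 32 genes were lower on the array labelled *daf-19(-)*, where 43.9% of all tested genes were, with a median difference of -0.83 for the core particle and -0.39 for the regulatory particle. In the second experiment 23 of the 32 were lower, where 47.4% of all tested genes were, with medians of -0.17 and -0.07. Both experiments thus ran in 1 direction for most genes, with a far smaller size in the second. With the replicate number added as a block, limma called 6 genes lower and 0 higher, where it called 3.36% and 4.70% of all tested genes. It took the variances from their trend alone. A gene's own disagreement between the experiments thus does not enter its p-value with the block, here or below. The 6 are *pas-4*, *pas-5*, *pbs-3*, *pbs-4*, *pbs-7* and *rpn-12*, each by the probe set that represents it.

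The alpha subunits guard the entry to the core, and their gate opens when the regulatory particle docks. All 7 had a log2 difference below 0, from -0.75 to -0.04, with a median of -0.42. Without replicate 1 labelled *daf-19(+)* the median was 0.014 and 3 of the 7 were below 0. *pas-5*, which encodes alpha subunit 5, had signals of 1966.8 and 2044.7 under the label *daf-19(-)* and of 4259.6 and 2700.2 under *daf-19(+)*. Its groups did not overlap, and the log2 difference was -0.75 (standard error 0.22, adjusted p = 0.127 from limma, and 0.00532 with the replicate block). *pas-4*, which encodes alpha subunit 4, had 1824.5 and 1942.8 against 3897.0 and 2153.4, a log2 difference of -0.62 (standard error 0.24, adjusted p = 0.208, and 0.0315 with the block). Here too the groups did not overlap, and replicate 2 labelled *daf-19(+)* lay close to the arrays of the other label. *pas-1*, which encodes alpha subunit 1, moved least, with 1590.5 and 1169.0 against 1691.9 and 1166.1 and a log2 difference of -0.04 (standard error 0.23, adjusted p = 0.944). In *pas-1* replicate 1 was above replicate 2 under both labels.

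*pas-7*, named after its values were seen, had the widest gap between replicates of the 32 genes. It had 886.9 and 851.1 under the label *daf-19(-)* and 2239.6 and 762.3 under *daf-19(+)*. The highest and the lowest of its 4 signals thus carry the same label, and its log2 difference of -0.58 (standard error 0.35, adjusted p = 0.386) turned to 0.19 without replicate 1 labelled *daf-19(+)*. *pas-2*, *pas-3* and *pas-6* had log2 differences from -0.42 to -0.41, and replicate 1 labelled *daf-19(+)* read from 3674.0 to 3730.1 in them where the other arrays read from 1950.8 to 2302.6.

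The beta ring holds the catalytic subunits. *pbs-1*, *pbs-2* and *pbs-5* encode the subunits beta 1, beta 2 and beta 5, which in other eukaryotes cut after acidic, basic and hydrophobic residues. *pbs-5* had signals of 2444.2 and 1737.7 under *daf-19(-)* and of 3695.0 and 1970.3 under *daf-19(+)*, a log2 difference of -0.39 (standard error 0.26, adjusted p = 0.44 from limma). *pbs-1* had 2875.7 and 2084.9 against 4529.8 and 2341.5, a log2 difference of -0.41 (standard error 0.26, adjusted p = 0.417). In both genes the groups overlapped, and replicate 1 was the higher array under each label. *pbs-2* had 1900.2 and 1392.6 against 2152.6 and 1881.7, a log2 difference of -0.30 (standard error 0.21, adjusted p = 0.438), the smallest of the beta ring. Its lead on replicate 1 labelled *daf-19(+)* over replicate 2 was 1.14-fold, the smallest of the 14 core genes. Without replicate 1 labelled *daf-19(+)* the difference was 0.06 for *pbs-1*, 0.06 for *pbs-5* and -0.21 for *pbs-2*.

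The other beta subunits do not cut and build the ring. *pbs-4* had signals of 2049.6 and 2084.9 against 4331.4 and 2756.4, the largest difference of the beta ring at -0.74 (standard error 0.21, adjusted p = 0.132, and 0.00632 with the replicate block). *pbs-7* had 2028.2 and 1653.2 against 3565.0 and 2463.7, a log2 difference of -0.69 (standard error 0.21, adjusted p = 0.143, and 0.0137 with the block). *pbs-3* had 2045.5 and 2148.1 against 4282.0 and 2436.1, a log2 difference of -0.62 (standard error 0.23, adjusted p = 0.198, and 0.028 with the block). In these genes and in *pbs-6*, at -0.57, the groups did not overlap, and all 7 beta subunit genes were lower on the array labelled *daf-19(-)* in both experiments. In each of them replicate 2 labelled *daf-19(+)* was thus also above replicate 2 of the other label.

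The 6 ATPases form the ring that unfolds substrates and pushes them through the gate. *rpt-3* had the largest difference among them, with signals of 3070.7 and 2791.9 against 5070.5 and 2852.4, a log2 difference of -0.38 (standard error 0.23, adjusted p = 0.398 from limma). Its groups overlapped, and without replicate 1 labelled *daf-19(+)* the difference was 0.04. *rpt-6* was at the other end, with 810.0 and 730.1 against 818.5 and 703.6 and a log2 difference of 0.02 (standard error 0.22, adjusted p = 0.975), the sole value above 0 among the 32 genes. The median of the 6 ATPases was -0.27 with all arrays and 0.0048 without replicate 1 labelled *daf-19(+)*, with 5 and 3 genes below 0. In 2 of them, *rpt-1* and *rpt-2*, the groups did not overlap, where 23% of all tested genes were lower without overlap. At the second probe set of *rpt-1* the groups overlapped.

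The non-ATPases hold scaffolds, ubiquitin receptors and the lid. *rpn-12*, which encodes a subunit of the lid, had the largest difference of all proteasome genes. Its signals were 1156.1 and 984.0 under *daf-19(-)* and 3031.3 and 1831.2 under *daf-19(+)*, a ratio of mean signals of 2.27 and a log2 difference of -1.13 (standard error 0.24, adjusted p = 0.0562 from limma, and 9.18e-06 with the replicate block). Each array labelled *daf-19(+)* lay above each of the other label, and the differences were -1.38 and -0.89 in the first and the second experiment. Without replicate 1 labelled *daf-19(+)* the difference was -0.77, the largest left among the 32 genes. With probe sets at 200 or more on at least 2 arrays alone tested, its adjusted p was 0.048, and with an offset of 64 it was 0.0417. Over all alternatives its adjusted p ran from 9.18e-06 with the block to 0.265 with no filter on dim probe sets.

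*rpn-11* encodes the metalloprotease of the lid that takes the ubiquitin chain off the substrate. It had signals of 1327.8 and 1170.6 against 2171.8 and 1424.5, without overlap, and a log2 difference of -0.49 (standard error 0.22, adjusted p = 0.266). *rpn-8*, the gene of its partner subunit, had a log2 difference of -0.40, also without overlap. The other 5 lid genes, *rpn-3*, *rpn-5*, *rpn-6.1*, *rpn-7* and *rpn-9*, had values from -0.21 to -0.10 and overlapping groups.

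*rpn-10* and *rpn-13* encode ubiquitin receptors, and *rpn-10* is known in the worm for its part in germline sex determination. *rpn-10* had signals of 1700.4 and 1848.5 against 1953.2 and 1979.2, a log2 difference of -0.15 (standard error 0.19, adjusted p = 0.692 from limma). Both arrays labelled *daf-19(+)* were nearly alike, with replicate 2 the higher, and the groups did not overlap. *rpn-13* had 1281.2 and 1405.3 against 1918.1 and 1422.8, a log2 difference of -0.30 (standard error 0.21, adjusted p = 0.453), with replicate 2 labelled *daf-19(+)* just above the other label. *rpn-1*, the gene of the large scaffold on which receptors dock, had 2435.4 and 2535.9 against 2873.2 and 2159.3 and a log2 difference of -0.00335 (standard error 0.19, adjusted p = 0.995), which quantile normalization of the arrays turned to 0.05. *rpn-6.2*, a paralog of *rpn-6.1*, was the member too dim to test, with signals of 92.3 and 78.6 against 51.0 and 79.6, and it reached 80 on 1 array.

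Core and regulatory genes differed in size more than in direction. The median log2 difference between the labels was -0.50 over 14 core genes and -0.20 over 18 regulatory genes, a gap of 0.29, and the standard deviation of that gap between replicates was 0.21. Of the 14 core genes, 13 lay below the median of the regulatory genes, with *pas-1* as the exception, and of the 18 regulatory genes only *rpn-12* lay below the median of the core. A signal 1.5-fold or more lower on the log2 scale on the arrays labelled *daf-19(-)* was found in 5 core genes and 1 regulatory gene, where 5.90% of all tested genes had it. The ratio of mean signals, *daf-19(+)* over *daf-19(-)*, ran from 1.04 to 1.73 in the core and from 0.988 to 2.27 in the regulatory particle. Without replicate 1 labelled *daf-19(+)* the gap between the medians was 0.08. The spread of 0.21 includes that array and is no like measure for this smaller gap.

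**Figure D2:**
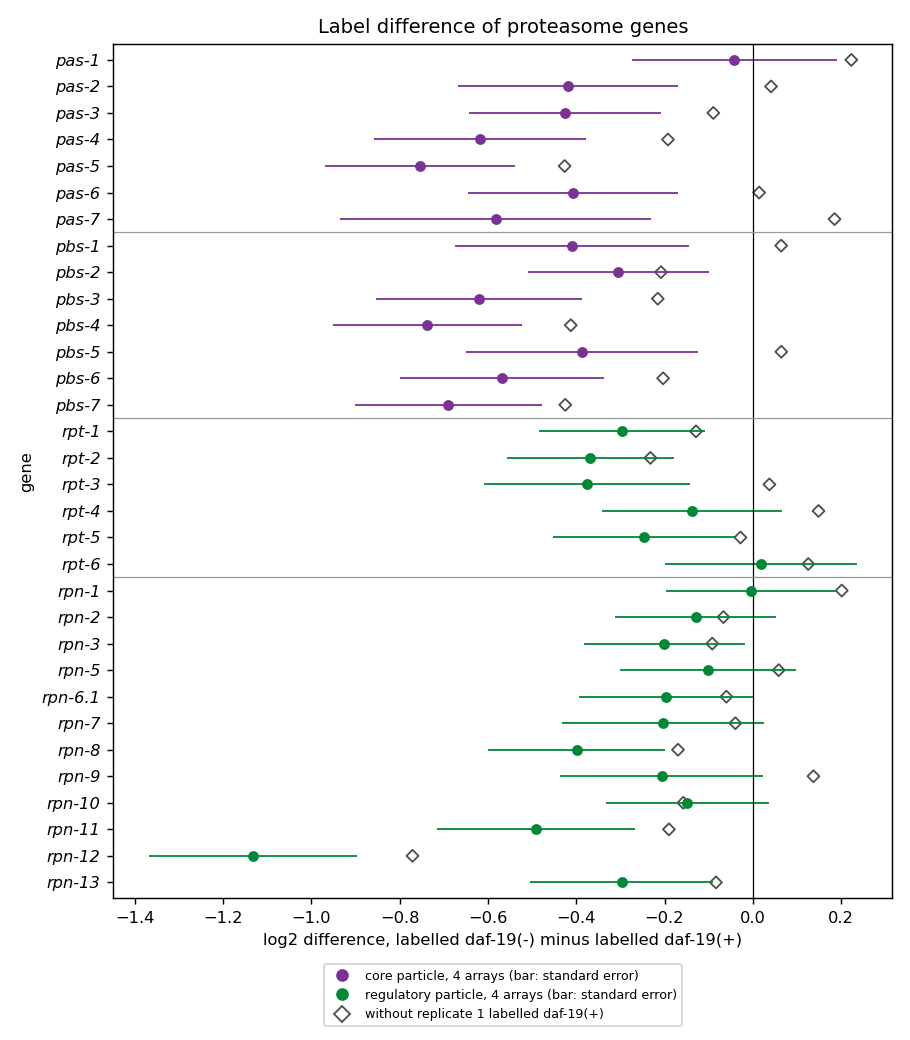
Log2 difference between arrays labelled daf-19(-) and daf-19(+) for each tested gene, purple for the core and green for the regulatory particle, with bars for the standard error from limma; open diamonds give the value without replicate 1 labelled daf-19(+). Core genes lie near -0.50 and most regulatory genes near -0.20, rpn-12 lies farthest left at -1.13, and 12 of the 32 diamonds lie at or above 0.

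Between replicates of the label *daf-19(+)* the core again stood farther apart than the regulatory particle. Replicate 1 was above replicate 2 in 31 of the 32 genes, where it was so in 43.7% of all tested genes, by a median of 0.77 on the log2 scale in the core and of 0.37 in the regulatory particle, against -0.06 for all tested genes. A lead of 1.5-fold or more was found in 11 of 14 core genes and in 4 of 18 regulatory genes, where 7.24% of all tested genes had it. The 4 are *rpn-9*, *rpn-11*, *rpn-12* and *rpt-3*. In 13 core genes and in 5 regulatory genes the lead was above that of 90% of all tested genes. After quantile normalization of the arrays the median lead of the core was 0.69.

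Between the arrays labelled *daf-19(-)* the replicates lay closer. Replicate 1 was above replicate 2 in 20 of the 32 genes, where 50.7% of all tested genes had this, with medians of 0.08 in the core and 0.14 in the regulatory particle against 0.00 for all tested genes. The widest gap was that of *rpn-7*, a lid gene, with 2359.0 and 1491.6. The summed signal of the core genes came to 27783.7 and 25008.1 under *daf-19(-)* and 49136.1 and 28989.8 under *daf-19(+)*. That of the regulatory genes was 36201.3 and 33180.5 against 48348 and 36053.6. In both sums 3 arrays lie close together and replicate 1 labelled *daf-19(+)* stands apart, farther in the core.

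**Figure D3:**
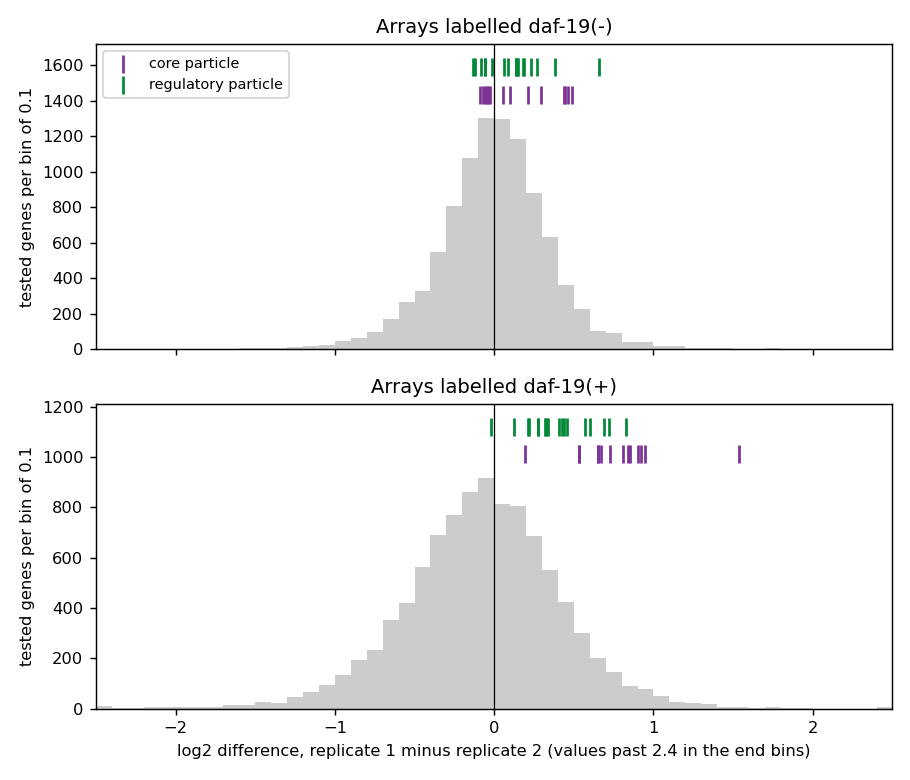
Grey bars count the tested genes by the log2 difference between replicate 1 and replicate 2, above for the arrays labelled daf-19(-) and below for those labelled daf-19(+), and ticks mark the core (purple) and regulatory (green) genes. The ticks straddle 0 in the upper plot, while in the lower plot 31 of 32 lie right of 0, the core around 0.77 and the regulatory particle around 0.37.

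A second probe set was present for 6 genes, and all 6 were bright enough to test. The probe sets of *pbs-3* ran alike, with log2 differences of -0.62 and -0.59, and those of *rpn-10* had -0.15 and -0.10. For *pbs-7* the brighter probe set had -0.69 and the other -0.36, with adjusted p of 0.143 and 0.35 from limma. With the replicate block the second probe set was called in neither *pbs-3* (adjusted p = 0.0637 from limma) nor *pbs-7* (0.256), so both calls depended on the probe set. The probe sets of *rpt-1* had -0.30 and -0.02. That of *rpt-2* with the lower signals had 1225.8 and 1134.1 against 1489.9 and 1749.1, a log2 difference of -0.45 beside -0.37, and its highest array was replicate 2 labelled *daf-19(+)*. The second probe set of *rpn-2* had 758.7 and 752.9 against 728.6 and 897.6, with its lowest signal on the array where the brighter one, with 1998.7 and 2076.8 against 2329.3 and 2134.4, had its highest. The second probe set of *rpn-10* had 844.2 and 792.8 against 938.3 and 825.6, with overlapping groups and its highest signal on replicate 1 labelled *daf-19(+)*. In *rpt-2*, *rpn-2* and *rpn-10* the highest array thus depended on the probe set, and so did the lowest in *rpt-1* and *pbs-7*. Of all 38 tested probe sets 35 were highest on replicate 1 labelled *daf-19(+)*, and 26 of the 39 member probe sets carry the suffix of probes shared between transcripts.

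Lists of other ubiquitin pathway genes also had medians below 0, with a smaller gap between replicates, and limma called 0 of their genes in either direction. With the replicate block it called 7 of 24 cullin ligase genes, 1 of 12 genes of the anaphase promoting complex and 1 of 18 proteasome partners lower. It called 0 genes of these lists higher, where 3.36% of all tested genes were called lower and 4.70% higher. A single call in a list of this size says little about the list. Of 24 cullin ligase genes, 11 were lower and 0 higher at an unadjusted p under 0.05, where 7.92% and 12% of all tested genes were. Their median was -0.42, and -0.26 without replicate 1 labelled *daf-19(+)*. The *skr* genes, 6 of the 7 called with the block, have close copies that may share signal. *ned-8*, the ubiquitin-like protein that activates cullins, had 972.3 and 1077.4 against 2544.5 and 1774.6, a log2 difference of -1.04 (adjusted p = 0.0552, and 1.00e-04 with the replicate block). In the cullin list replicate 1 labelled *daf-19(+)* was above replicate 2 by a median of 0.23. The 12 genes of the anaphase promoting complex, the ligase that drives exit from mitosis, had a median of -0.34, and *apc-10* had -0.81 (adjusted p = 0.188, and 0.0347 with the block).

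Of 18 tested partners and regulators of the proteasome 14 had a value below 0, with a median of -0.20. The largest was that of *dss-1*, which encodes the smallest lid subunit in other species, with 3903.8 and 2836.6 against 7075.9 and 4468.9 and a log2 difference of -0.75 (adjusted p = 0.137, and 0.00295 with the replicate block). *dss-1* had its highest signal on replicate 1 labelled *daf-19(+)*, as the lid genes do. *skn-1*, whose product raises proteasome genes when the proteasome is impaired, had 879.3 and 1014.2 against 966.8 and 904, and its groups overlapped. *ddi-1*, the protease that activates SKN-1A, had 1612.9 and 1638.7 against 2544.2 and 1859.4. The ubiquitin genes *ubq-1* and *ubq-2* and the activating enzyme *uba-1* were on a list of 4 genes with a median of -0.01.

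The COP9 signalosome and eIF3 are related in build to the lid. The 6 tested COP9 genes had a median of -0.34 and the 10 eIF3 genes of -0.17, and replicate 1 labelled *daf-19(+)* was above replicate 2 by medians of 0.14 and 0.07. The largest values were those of *csn-2*, at -1.17 (adjusted p = 0.212, and 0.0479 with the block) with signals from 36.2 to 203.4, and of *eif-3.J*, at -0.42 (adjusted p = 0.261). Large complexes outside the pathway showed little of the gap. The 8 genes of the CCT chaperonin, which folds actin and tubulin, had a median label difference of -0.07 and a median gap between those replicates of 0.05, and *cct-7* had -0.33 (adjusted p = 0.345). The 74 tested genes of cytosolic ribosomal proteins had -0.03 and -0.05, and *rps-20* had -0.77 (adjusted p = 0.0646, and 0.0016 with the block). Both medians of the core particle, -0.50 and 0.77, lay farther from 0 than those of the ubiquitin pathway, COP9, eIF3, CCT and ribosomal lists. For the label this rests on 1 array, since without replicate 1 labelled *daf-19(+)* the core median of -0.14 was nearer 0 than that of the partners (-0.18), the COP9 genes (-0.23), the cullin ligases (-0.26) and the anaphase promoting complex (-0.31). Being lower without overlap was not particular to the proteasome genes, where 15 of 32 were. It was found in 15 of 24 cullin ligase genes, 9 of 12 of the anaphase promoting complex and 12 of 18 partners. The same held for 5 of 6 COP9 and 5 of 10 eIF3 genes, but for 3 of 8 CCT and 8 of 74 ribosomal genes. Of all tested genes 23% were so.

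**Figure D4:**
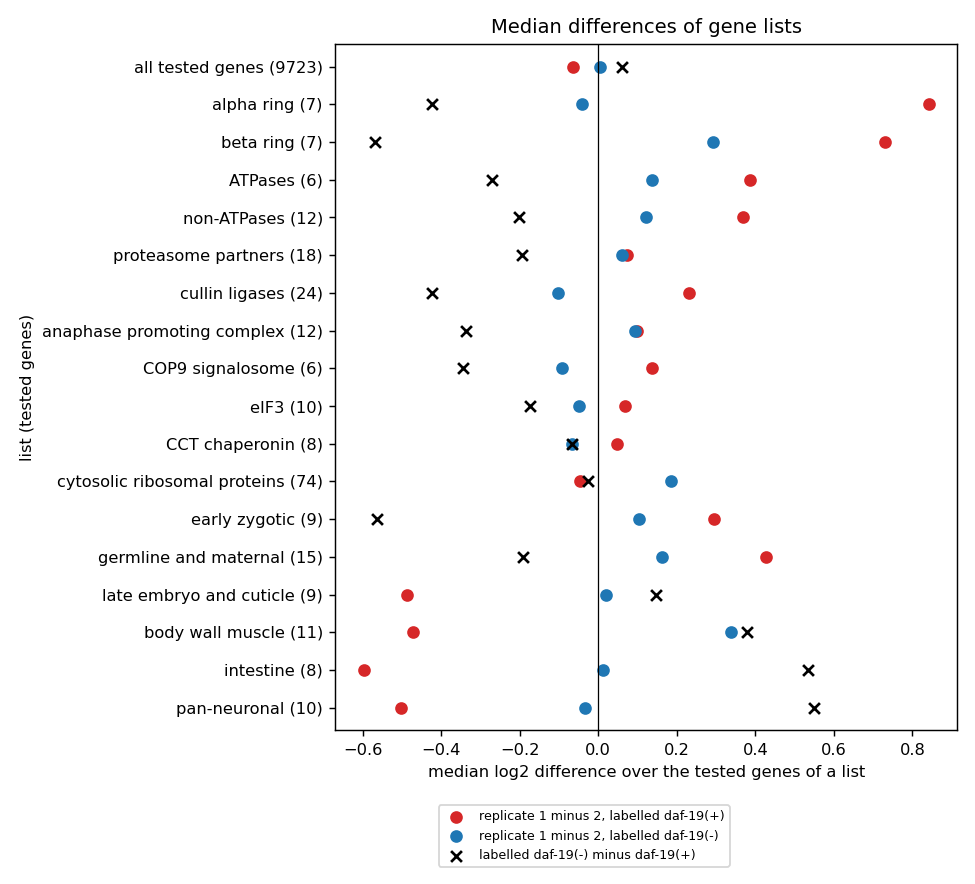
Median log2 difference over the tested genes of each list, with the number of genes beside its name: red for replicate 1 minus replicate 2 labelled daf-19(+), blue for the same labelled daf-19(-), crosses for arrays labelled daf-19(-) minus daf-19(+). The alpha and beta rings have the largest red values, 0.84 and 0.73, and late embryo, muscle, intestine and pan-neuronal genes lie left of 0 in red, from -0.60 to -0.47.

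Markers of embryonic stage and tissue differed on the same array. Of 15 tested germline and maternal genes 13 were higher on replicate 1 than on replicate 2 labelled *daf-19(+)*, by a median of 0.43, and their summed signal was 37164.4 and 29461.7 there, against 30540.1 and 27538.2 under the other label. Most genes on 4 lists of later embryos and differentiating tissues were lower on that array. All 9 late embryo and cuticle genes, all 8 intestine genes, 10 of 11 body wall muscle genes and 8 of 10 pan-neuronal genes were below replicate 2, with median differences of -0.49, -0.60, -0.47 and -0.50. Of all tested genes 43.7% were above replicate 2, with a median of -0.06. Ciliated neuron genes, dim under this label, were above it in 5 of 12, with a median of -0.13. The summed signal of the muscle genes came to 38688.4 and 44188.3 under *daf-19(+)*, against 50547.6 and 44011.0. That of the intestine genes was 9623.2 and 13135.0 against 18117.5 and 15194.4, that of the pan-neuronal genes 7474.6 and 9781.2 against 11362.5 and 10850.0, and that of the late embryo genes 52951.1 and 64647.8 against 65693.6 and 62167.3. The part of these genes in the proteasome values was not tested.

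Early zygotic genes, which are switched on when the embryonic genome starts to be read, kept their median when that array was left out. Of 9 tested genes 8 had a value below 0, with a median of -0.56 with all arrays and of -0.56 without replicate 1 labelled *daf-19(+)*, and *lsy-27* had -0.93 (adjusted p = 0.104, and 0.0018 with the block). Their summed signal was 6967.9 and 7381.6 against 11612.7 and 10083.0, replicate 1 was above replicate 2 labelled *daf-19(+)* in 7 of 9 by a median of 0.29, and the part of these genes in the proteasome values was not tested. The largest values of the other marker lists were -0.71 for *pgl-1*, 0.51 for *dpy-13*, 0.64 for *deb-1*, 0.81 for *cpr-6*, 0.86 for *unc-10* and 4.32 for *tctn-1*. Of these limma called only *tctn-1* without the block (adjusted p = 2.25e-04) and all 6 with it, at adjusted p up to 0.0483. That highest value is of *dpy-13*, with 8999.2 and 10077.5 against 4401 and 10150. Its groups overlapped, and its replicates 2 were nearly alike. Of adult yolk genes 1 of 5 reached the filter, *vit-6*, with signals from 58 to 434.1, and of sperm genes 2 of 10 did, *msp-19* and *msp-78*, with signals from 49.4 to 127.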

How the data were processed

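RNA of *C. elegans* embryos was labelled from 5 micrograms of total RNA and hybridized to 4 Affymetrix arrays. The deposited values are intensities, namely GCOS signals (its version is not given in the sources used here) that the authors scaled on each chip to a target of 500, and no column was left unused (0 columns). Of 22625 probe sets, 77 controls were left out. The probe annotation names 1 gene for 20766 of the rest, several for 887 and none for 895, and 20701 were matched to RefSeq genes (WBcel235) for current symbols.

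The test was run on log2(signal + 16) by limma 3.58.1 in R 4.3.3 (lmFit, eBayes with a variance trend, two-sided) on the 13096 probe sets with 80 or more on 2 arrays or more, with Benjamini-Hochberg adjusted p under 0.05 as the threshold. The offset shrinks differences at low signals. Precision is limited by the number of arrays, 2 for each label. Lists were described by counts and medians, with no test. Groups follow the deposited labels. The members, lists, rule and alternatives were chosen with earlier results of these data known. Values in every array are given for catalytic subunits, ubiquitin receptors, *rpn-11*, the extremes of each class, proteasome genes called with the block and the member that missed the filter. They are given for only some of the genes with several probe sets and some of the largest values of the other lists. Replicate numbers were used as a block because the study computes its folds within each experiment, and differences between replicates correlated at 0.12 between the labels. Alternatives were other filters, offsets, normalization, no variance trend, the block, other probe sets and each array left out. The fit was tested on simulated data.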

Additional observations from a re-analysis of the deposited data

How the results depend on the processing

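Without replicate 1 of *daf-19(+)* the medians of the alpha ring and the ATPases turned, to 0.014 and 0.0048. The core and regulatory medians kept their sign under every alternative run. The count of genes called lower, 0, became 1 with the filter at 200, with an offset of 64 and with no shared probe sets, each time *rpn-12*, and 6 with the replicate block, while the count called higher stayed 0. Leaving out each array in turn, the count called lower ran from 0 to 16, the core median from -0.91 to -0.14, the regulatory median from -0.44 to -0.063 and their difference from 0.078 to 0.46. Genes without overlap then ran from 15 to 32 lower and from 0 to 7 higher. Groups part more easily with 1 array under a label. Without replicate 2 labelled *daf-19(+)*, 36.2% of all tested genes were lower without overlap, against 23% with all arrays. For the other left-out arrays such shares are not given, so their counts without overlap have no background here. With no shared probe sets fewer genes enter, and of the core only *pas-2*, *pas-5* and *pbs-4* do. The core median was then the value of *pbs-4*, -0.74, and the difference of the medians was 0.54. Of the genes left, 6 were lower without overlap. Replicate 1 was above replicate 2 in 6 of them labelled *daf-19(-)* and in 11 labelled *daf-19(+)*. Shares of all tested genes are not given for this setting, so these counts cannot be set against a background. When replicate 1 of *daf-19(+)* was left out, 12 of the 32 genes had values above 0, among them *pas-1*, *pas-7*, *pbs-1*, *pbs-5*, *rpn-1* and *rpt-3*, and 0 were called. Quantile normalization left 30 of 32 genes below 0. Why 1 array decides these values was not tested. With a single array left under a label, it is assumed to vary like those of the other label. The extremes at single genes rest on 2 arrays a label, and dim genes such as *rpn-6.2* have no test.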
